A study of Homo sapiens with 6 samples.

Results

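The lysosome genes described here are the enzymes, membrane proteins, sorting factors and proton pump subunits that build and maintain the lysosome. A gene was taken as a member when its annotation listed the KEGG Lysosome entry, or when its symbol began with ATP6V or ATP6AP, the prefixes of vacuolar ATPase subunits and accessory proteins. The rule found 168 genes of 17687 in the table, 152 by the KEGG entry and 25 by symbol, of which 9 met both conditions. They comprised 49 hydrolases, 6 cofactors of hydrolases, 23 membrane proteins, 32 sorting genes, 25 proton pump genes and 33 other annotated genes. The last group holds genes without a settled lysosomal role, such as the actin regulator CAP1 and the chromatin factor MORF4L1. It also holds ATP6V1FNB, whose symbol begins with ATP6V.

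RNA was sequenced from KHM-5M cells, an established line from anaplastic thyroid cancer, the undifferentiated and most aggressive form of thyroid tumour, grown in RPMI-1640 medium with serum. The control group is labelled as such, and the study names phosphate-buffered saline (PBS) as the control in several of its other assays. The SS group received sodium selenite, a selenium salt that reacts with cellular thiols. The SS+NAC group received selenite with N-acetylcysteine (NAC), a thiol antioxidant. Each of the 3 groups had 2 libraries, and no group with NAC alone was analysed here, so the action of NAC and its action on selenite cannot be told apart. The titles of the control and SS libraries carry a number after SS without a unit. The labels do not otherwise give the dose of selenite or the time of harvest. Total expected counts ran from 17645545 in control replicate 1 to 23810056 in SS replicate 2, and lysosome genes took between 1.16% and 1.3% of the counts of a library.

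The label of the line was checked against markers. PAX8, a thyroid lineage factor, had a mean of 66.7 ± 2.69 FPKM (fragments scaled to transcript length and library size, SD, n = 2) in control. The differentiation genes TG, SLC5A5, NKX2-1 and FOXE1 had control means of 0.15, 0.32, 0.09 and 0.49 FPKM. Of the epithelial genes, the keratins KRT8 and KRT18 stood at 597 ± 22.3 and 478 ± 0.601 FPKM, and EPCAM and CDH1 at 2.85 ± 0.361 and 0.115 ± 0.0495 FPKM. The mesenchymal genes vimentin (VIM) and FN1 stood at 3104 ± 129 and 576 ± 5.1 FPKM. Of the fibroblast markers, COL1A1 had 111 ± 0.12 FPKM, and COL3A1, PDGFRB, DCN and LUM lay between 0 and 3.3 FPKM. The leukocyte markers PTPRC, CD14, CSF1R, CD163 and ITGAM lay between 0 and 0.73 FPKM in control, whereas LAPTM5, a lysosomal membrane protein best known from blood cells, reached 139 ± 2.79 FPKM in the same libraries.

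Lysosomes are the acidic compartments in which cells break down proteins, lipids, glycans and nucleic acids. Soluble hydrolases are tagged with mannose 6-phosphate in the Golgi by the GNPTAB and GNPTG phosphotransferase, and are carried by the receptors IGF2R and M6PR in clathrin-coated carriers with adaptor proteins. The vacuolar ATPase pumps protons into the lumen, with a V1 sector that splits ATP in the cytosol and a V0 sector that conducts protons through the membrane. Many of these genes share a promoter element bound by TFEB, TFE3 and MITF, transcription factors that the kinase mTORC1 holds in the cytosol of well-fed cells, and the surface of the lysosome is where mTORC1 is activated.

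Levels between genes were compared in FPKM, which is scaled to transcript length. In control cells 138 of the 168 genes had a mean of at least 1 FPKM, 86 of at least 10 FPKM and 15 of at least 100 FPKM. CD63, a tetraspanin of late endosomes and lysosomes, was the most abundant at 573 ± 7.65 FPKM (SD, n = 2), which was 10.5% of the summed FPKM of all 168 genes. LAPTM4B, a lysosomal membrane protein, followed at 263 ± 1.04 FPKM. Among the hydrolases, the carboxypeptidase cathepsin Z (CTSZ) stood at 228 ± 5.54 FPKM and the aspartic protease cathepsin D (CTSD) at 146 ± 1.07 FPKM. The proton pump was led by its membrane-ring subunit ATP6V0C at 179 ± 15.1 FPKM and by ATP6V0E1 at 131 ± 5.26 FPKM. CAP1 at 183 ± 3.09 FPKM, clathrin light chain A (CLTA) at 162 ± 1.95 FPKM, LAPTM5, and PSAP, the precursor of the saposin activators, at 130 ± 1.44 FPKM completed the 10 most abundant genes.

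**Figure D1:**
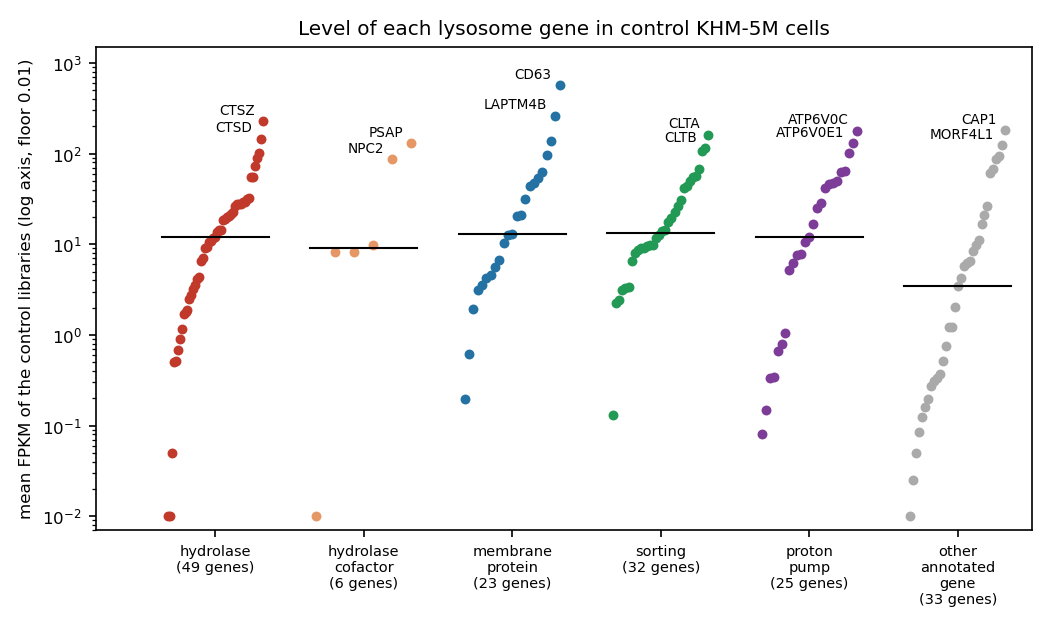
Mean FPKM of each of the 168 lysosome genes in the 2 control libraries, on a log axis and grouped by class, with the median of each class as a line and values under 0.01 FPKM drawn at 0.01. CD63 is the highest point at 573 FPKM.

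Of the 168 genes, 158 had enough counts to be tested. The other 10 were the hydrolases DNASE2B, CTSE and NAPSA, the saposin-like PSAPL1, the kidney-type pump subunit ATP6V1B1, and ATP6V1FNB, DRICH1, LIPN, LOC400499 and WBP2NL. None of these 10 exceeded 11 counts in any library.

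The comparison of SS with control asks how selenite alone changed these genes. At an adjusted p of at most 0.05 in edgeR's quasi-likelihood test, 36 of the 158 genes rose and 20 fell, against 2605 higher (18.6%) and 3004 lower (21.4%) of all 14005 genes tested. In bulk RNA, a change per cell and a change in the mixture of cells cannot be told apart. Of the 6 epithelial and mesenchymal genes, 3 were called higher, KRT8, KRT18 and VIM at 0.48, 0.44 and 0.40, and 0 with the length offset; 0 of the tested thyroid, leukocyte, fibroblast and endothelial markers were called. The part of these changes in the lysosome values was not tested. The median log2 fold change was 0.07 over the tested lysosome genes and 0.00 over all genes. The proton pump had a class median of 0.21, with 9 of 24 genes higher and 2 lower, and with the length offset described below its median was 0.08, beside 0.09 for the other annotated genes. Hydrolases had a median of 0.07, with 11 of 46 higher and 3 lower, and the 5 tested cofactors one of 0.09, with 1 higher. Membrane proteins had a median of -0.05, with 2 of 23 higher and 5 lower, and sorting genes one of -0.03, with 6 of 32 higher and 8 lower. The other annotated genes had a median of 0.15, with 7 of 28 higher and 2 lower. The offset also turned the median of the cofactors to -0.03 and that of the sorting genes to 0.01, and the median of the membrane proteins was 0.02 without control replicate 2 and 0.03 without SS replicate 2. The counts of called lysosome genes were lower without control replicate 1, control replicate 2 or SS replicate 2. Those over all tested genes in these fits are not given here. Each of the 56 called genes kept its direction in all 6 fits that left out a library. These genes were picked on the same libraries, so this is a description and no separate test. The fits without an SS+NAC library also kept both compared groups whole.

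Direction followed transcript length. Across the 158 tested lysosome genes, the Spearman correlation between log2 fold change (SS over control) and effective transcript length was -0.82, and across 13981 tested genes with a length it was -0.68. Genes are not independent replicates, so these are descriptions. Of the 30 lysosome genes shorter than 1700 bases, 24 rose and 0 fell, with a median of 0.39. Of the 53 with 3500 bases or more, 0 rose and 19 fell, with a median of -0.19. The 75 between these bounds, which were chosen after the values were seen, had 12 higher and 1 lower. Over all tested genes with a length, the median was 0.46 in the shortest eighth and -0.46 in the longest eighth. Shares of all genes called within the bounds are not given here. In SS+NAC over control the correlation with length across the lysosome genes was -0.10.

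A fit with an offset for each library's trend on length gave a correlation of 0.00 across the same 158 genes. In that fit, 4 lysosome genes were higher and 1 was lower, against 589 higher (4.21%) and 704 lower (5.03%) of all genes. The 5 genes were the protease CTSA, the pump subunit TCIRG1, the ganglioside activator GM2A and the adaptor subunit AP3S2, which were higher, and GNPTAB, which was lower. The number of calls depended on single libraries, over all tested genes as over the lysosome genes. In both it was lower without any single control or SS library, and higher without either SS+NAC library. How much of the length trend arose in the cells and how much in library preparation was not tested, so the genes called in SS over control are given with both values.

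**Figure D2:**
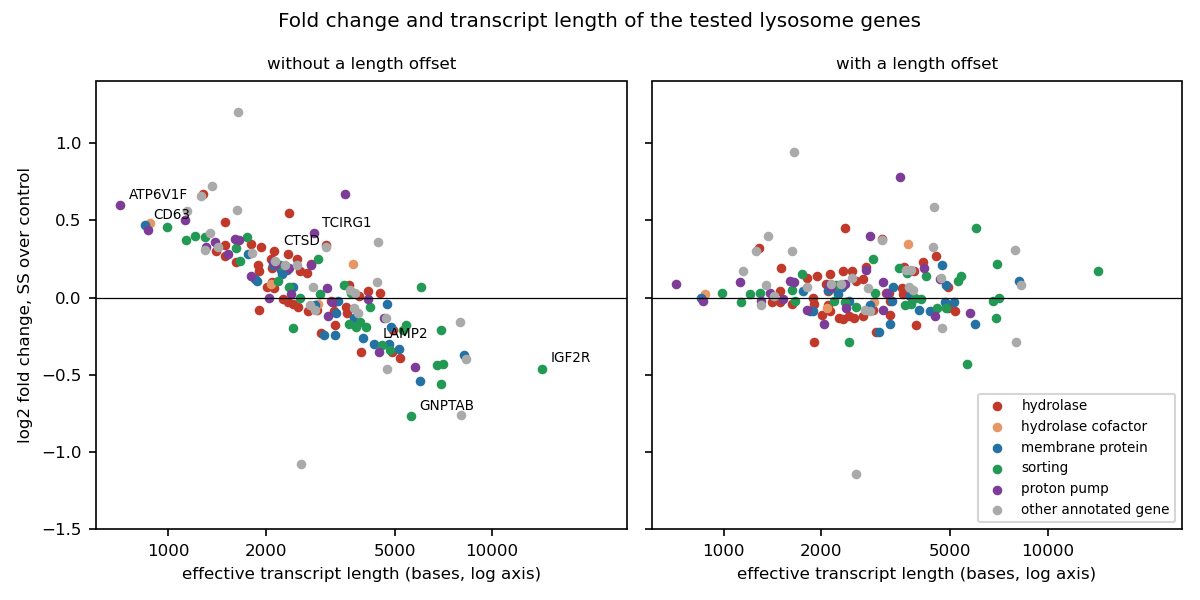
Log2 fold change (SS over control) of the 158 tested lysosome genes against effective transcript length in bases (log axis), coloured by class, without a length offset on the left and with it on the right. Short genes lie above 0 and long genes below it on the left (Spearman -0.82), and the slope is absent on the right (0.00).

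Proton pump genes that rose with SS were mostly those of the small subunits. ATP6V1F, a stalk subunit of the V1 sector, had 70.3 and 72.5 CPM in control, 100 and 116 CPM with SS, and 74.4 and 67.8 CPM with SS+NAC (CPM, counts scaled to library size with TMM factors). Both SS libraries were above all 4 others. SS over control gave a log2 fold change of 0.60 ± 0.0887 (SE), with an adjusted p of 0.000708, and 0.09 with the length offset (adjusted p = 0.446). ATP6V0C, the subunit that forms most of the proton-carrying ring, had 190 and 215 CPM in control, 267 and 307 CPM with SS, and 244 and 199 CPM with SS+NAC, and both SS libraries lay above every other library. Its log2 fold change was 0.50 ± 0.111 (SE) (adjusted p = 0.00528) and 0.10 with the offset. ATP6V0E1, a small V0 subunit, had 108 and 116 CPM in control, 149 and 154 CPM with SS, and 110 and 110 CPM with SS+NAC. The control and SS+NAC libraries overlapped, and both SS libraries stood above them, with a log2 fold change of 0.44 ± 0.0724 (SE) (adjusted p = 0.00115) and of -0.02 with the offset. ATP6V0B, ATP6V0D1, ATP6V1E1 and ATP6V1G1 also rose, by log2 values of 0.33, 0.37, 0.36 and 0.38. With the offset these were -0.02, 0.10, 0.03 and 0.11. ATP6V1H, the regulatory subunit that joins the sectors, rose by 0.22 (adjusted p = 0.0421), with 0.07 under the offset.

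TCIRG1, the a3 isoform of the large V0 subunit, known from osteoclasts, rose although its transcript is not short (2821 bases). It had 28.5 and 29.9 CPM in control, 40.9 and 36.9 CPM with SS, and 36.2 and 35.4 CPM with SS+NAC. Every SS and SS+NAC library was above both controls. SS over control gave a log2 fold change of 0.42 ± 0.0838 (SE) (adjusted p = 0.00323), and 0.40 with the offset (adjusted p = 0.0133). Without the offset TCIRG1 stayed past the threshold in all 6 fits that left out a library. With the offset its adjusted p was 0.148 without control replicate 1, 0.0729 without control replicate 2 and 0.123 without SS replicate 1. Of the 5 pump genes with 3500 bases or more, 2 fell and 0 rose. Of the 53 lysosome genes of that length 19 fell and 0 rose. Of all tested genes 21.4% fell and 18.6% rose, but these are of every length and do not match the long genes. ATP6V1C1 (5779 bases), a V1 subunit that regulates assembly, had 96.6 and 95.4 CPM in control, 70.1 and 70.5 CPM with SS, and 85.5 and 89.4 CPM with SS+NAC. Its log2 fold change was -0.45 ± 0.07 (SE) (adjusted p = 0.00087), and -0.10 with the offset. ATP6V0A2, the a2 isoform found in the Golgi, fell by 0.35 on the log2 scale (adjusted p = 0.0121), with -0.12 under the offset.

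The catalytic V1 subunit ATP6V1A had 34.4 and 34.6 CPM in control, 32.3 and 31 CPM with SS, and 34.8 and 38.1 CPM with SS+NAC, and its SS libraries were the lowest by a margin that did not pass the test (log2 fold change -0.13, adjusted p = 0.246). ATP6V1B2, its partner in the hexamer, had a log2 fold change of -0.03 (adjusted p = 0.785). ATP6V0A1, ATP6V1D and ATP6V0E2 were not called in SS over control, with log2 values of -0.01, 0.14 and 0.21. The accessory proteins ATP6AP1, ATP6AP2 and ATP6AP1L were not called either, at 0.23, -0.00 and 0.67, although ATP6AP1 was called in 5 of the alternative fits and ATP6AP1L in 1, that with at least 10 counts in every library. The tissue-restricted isoforms ATP6V0A4, ATP6V0D2, ATP6V1C2, ATP6V1E2 and ATP6V1G2 were detected at low level, with control means between 0.363 and 2.53 CPM, and none was called in any of the 3 comparisons.

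**Figure D3:**
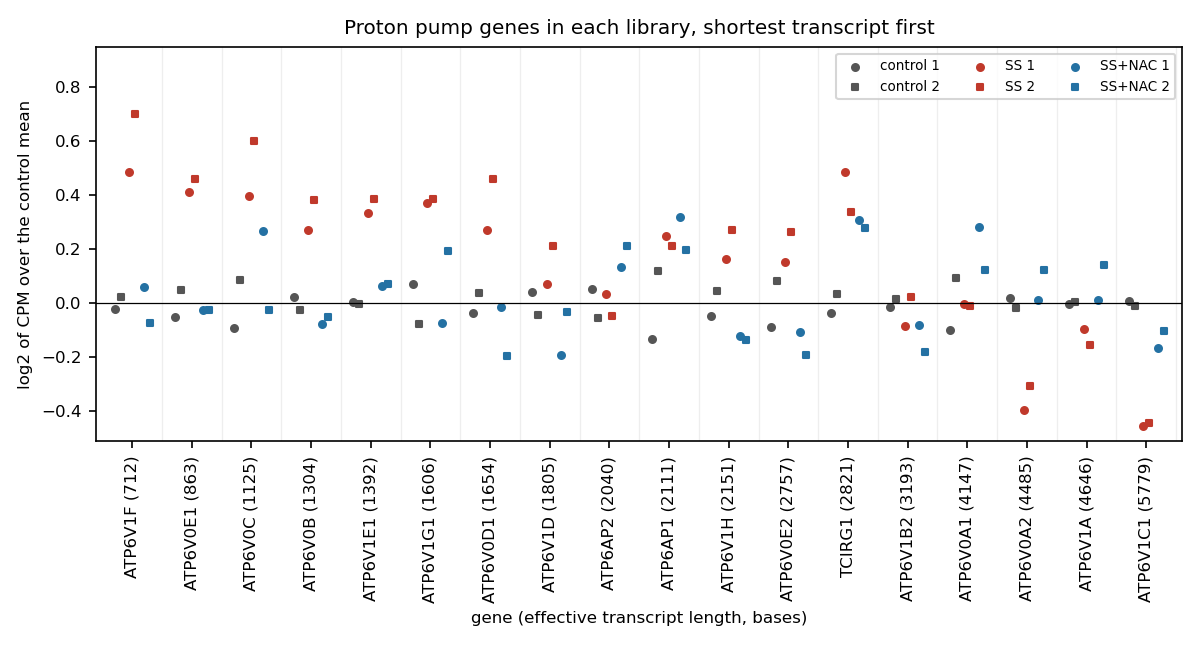
Log2 of CPM over the control mean in each of the 6 libraries for the 18 proton pump genes whose mean reached 4 CPM in any group, ordered from the shortest transcript (ATP6V1F, 712 bases) to the longest (ATP6V1C1, 5779 bases). The SS libraries (red) lie above the controls at the short end and below them for ATP6V0A2 and ATP6V1C1, while SS+NAC libraries (blue) stay nearer the controls for most genes.

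Among hydrolases, 6 of 15 tested proteases rose with SS and 0 fell, beside 18.6% and 21.4% of all tested genes, and with the length offset 1 of the 15 was called. CTSD had 305 and 307 CPM in control, 374 and 378 CPM with SS, and 359 and 358 CPM with SS+NAC. The SS libraries were the highest and the controls the lowest, with the SS+NAC libraries between them. The log2 fold change was 0.30 ± 0.0705 (SE) (adjusted p = 0.00749), and 0.15 with the offset (adjusted p = 0.166). Cathepsin A (CTSA), a carboxypeptidase that also protects the sialidase NEU1 and beta-galactosidase, had 164 and 168 CPM in control, 205 and 216 CPM with SS, and 192 and 197 CPM with SS+NAC. All 4 treated libraries exceeded both controls. Its log2 fold change was 0.34 ± 0.0717 (SE) (adjusted p = 0.00414) and 0.38 with the offset (adjusted p = 0.00772), which made it the hydrolase called under both fits. Without control replicate 1 its adjusted p was 0.0656 in the fit without the offset. With the offset it was 0.121 without control replicate 1, 0.0701 without control replicate 2 and 0.0883 without SS replicate 2. CTSH, CTSW, CTSZ and CTSL rose by 0.49, 0.67, 0.27 and 0.23, and with the offset had 0.19, 0.32, -0.03 and -0.04. CTSB, the most studied cysteine cathepsin in tumour invasion, had 209 and 213 CPM in control, 225 and 202 CPM with SS, and 219 and 246 CPM with SS+NAC, and the SS libraries spanned both controls (log2 fold change 0.01, adjusted p = 0.911).

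The glycosidases GLA, HEXA and NEU1 rose by 0.30, 0.22 and 0.25, and the lipid hydrolase PPT2 and the sulfatase ARSA by 0.33 and 0.28. With the offset these 5 values were -0.03, 0.20, 0.09, 0.14 and 0.17. The falls were in long transcripts. IDS, the iduronate sulfatase, had 148 and 137 CPM in control, 115 and 108 CPM with SS, and 134 and 153 CPM with SS+NAC, with a log2 fold change of -0.35 ± 0.0859 (SE) (adjusted p = 0.0085) and of -0.07 with the offset, and the galactocerebrosidase GALC fell by 0.35 (adjusted p = 0.0311), with -0.18 under the offset. GAA, the acid alpha-glucosidase, had a log2 fold change of 0.08 (adjusted p = 0.42). None of the 14 hydrolase calls stayed past the threshold in all 6 fits that left out a library.

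NPC2, a small luminal protein that hands cholesterol to NPC1, was the cofactor that rose. It had 75.6 and 73.7 CPM in control, 102 and 106 CPM with SS, and 81.6 and 82.7 CPM with SS+NAC. The SS libraries were above all others. The log2 fold change was 0.48 ± 0.0699 (SE) (adjusted p = 0.000631), and 0.02 with the offset for its 878-base transcript. PSAP had 366 and 378 CPM in control, 377 and 346 CPM with SS, and 416 and 446 CPM with SS+NAC, with SS and control overlapping (log2 fold change -0.04, adjusted p = 0.72). GM2A had a log2 fold change of 0.22 (adjusted p = 0.0993), and of 0.35 with the offset (adjusted p = 0.0452).

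The membrane proteins split by length in the same way. CD63 had 482 and 481 CPM in control, 653 and 679 CPM with SS, and 533 and 523 CPM with SS+NAC, and both SS libraries exceeded the other 4. Its log2 fold change was 0.47 ± 0.0734 (SE) (adjusted p = 0.000909), and with the offset it was near 0 (adjusted p = 0.993). LAPTM4A rose by 0.28 (adjusted p = 0.0128), with 0.04 under the offset. LAMP2, one of the major glycoproteins of the lysosomal membrane and the receptor of chaperone-mediated autophagy, had 138 and 133 CPM in control, 116 and 104 CPM with SS, and 136 and 157 CPM with SS+NAC. Both SS libraries were below the rest, with a log2 fold change of -0.30 ± 0.0897 (SE) (adjusted p = 0.0222) and of -0.09 with the offset. SCARB2, a receptor of the lysosomal membrane, fell by 0.30 (adjusted p = 0.0472). ENTPD4, HGSNAT and CD164 fell by 0.54, 0.33 and 0.24. With the offset SCARB2 and these 3 had -0.03, -0.17, -0.03 and -0.17. LAMP1 had 223 and 238 CPM in control, 249 and 236 CPM with SS, and 255 and 248 CPM with SS+NAC, with SS and control overlapping (log2 fold change 0.07, adjusted p = 0.493). The cholesterol exporter NPC1 and the calcium channel MCOLN1 were not called, at -0.19 and 0.21, although NPC1 was called in 3 of the alternative fits. With the offset, 0 of the 23 membrane proteins were called in edgeR's quasi-likelihood test. In the same test 0 had an unadjusted p under 0.05, beside 3551 of all 14005 tested genes.

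In the sorting class, the subunits of the tagging enzyme moved in opposite directions. GNPTAB, which encodes the catalytic alpha and beta subunits, had 46.7 and 42.6 CPM in control, 26.8 and 25.3 CPM with SS, and 39.9 and 45.8 CPM with SS+NAC. Both SS libraries were far below the other 4. The log2 fold change was -0.77 ± 0.0938 (SE) (adjusted p = 0.000289), the lowest among the called lysosome genes in this comparison, and -0.43 with the offset (adjusted p = 0.0119). The call with the offset was lost without control replicate 1 (adjusted p = 0.14), without SS replicate 1 (0.0789) and without SS replicate 2 (0.0965). GNPTG, the gamma subunit, had 19.7 and 22.6 CPM in control, 28.5 and 27.3 CPM with SS, and 23.8 and 24.6 CPM with SS+NAC. The SS libraries were the highest, and the gene rose by 0.40 ± 0.0933 (SE) (adjusted p = 0.00695), with 0.02 under the offset. The large receptor IGF2R, whose 14286-base transcript is the longest of the class, had 131 and 137 CPM in control, 102 and 93.8 CPM with SS, and 155 and 146 CPM with SS+NAC. Its SS libraries were the lowest and its log2 fold change was -0.46 ± 0.0769 (SE) (adjusted p = 0.00126), which turned to 0.17 with the offset (adjusted p = 0.152). The small receptor M6PR had 165 and 175 CPM in control, 172 and 169 CPM with SS, and 172 and 171 CPM with SS+NAC, and all 3 groups overlapped (adjusted p = 0.993).

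Clathrin light chains and heavy chain also parted. CLTA and CLTB rose by 0.46 and 0.37, and the heavy chain CLTC fell by 0.21 (adjusted p = 0.0448). With the offset the 3 values were 0.03, -0.03 and 0.22. Of the adaptors, the small subunits AP1S1 and AP3S1 rose by 0.39 and 0.32, as did the large subunit AP1G2 by 0.25, whereas the large subunits AP1G1 and AP3D1 fell by 0.56 and 0.34 and the sorting receptor SORT1 fell by 0.43. In the same order, their values with the offset were 0.03, 0.05, 0.25, -0.13, -0.07 and 0.00. AP3S2 was not called without the offset (0.07) and was 0.45 with it (adjusted p = 0.0106). With the offset its adjusted p was 0.0679 without control replicate 1, and 0.107 without control replicate 2 and again without SS replicate 2.

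The comparison of SS+NAC with control asks what remained of the change when the antioxidant was present, and shares the control libraries with the comparison above. It called 2 of the 158 genes higher and 0 lower, against 190 higher (1.36%) and 92 lower (0.657%) of all genes. With the length offset the counts were again 2 and 0, against 1.35% and 0.664%. At an unadjusted p under 0.05 there were 33 lysosome genes of 158 and 2256 of all 14005. DESeq2's Wald test, the other tool run, also called 2 higher and 0 lower. The count of higher lysosome genes fell when either control library was left out and rose when either SS+NAC library was. With the offset, the count of higher genes over all tested genes moved the same way.

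GAA, which releases glucose from glycogen in the lysosome, was the hydrolase called. It had 41.6 and 41.5 CPM in control, 45 and 43 CPM with SS, and 55.3 and 53.3 CPM with SS+NAC. Both SS+NAC libraries were above all 4 others, and the SS libraries were slightly above the controls. The log2 fold change of SS+NAC over control was 0.38 ± 0.0737 (SE) (adjusted p = 0.0264) and 0.38 with the offset (adjusted p = 0.0219). Without control replicate 1 its adjusted p was 0.214 and without control replicate 2 it was 0.257, at a log2 value of 0.39 each time. UNKL, a zinc finger gene of the other annotated group, had 22.4 and 20.8 CPM in control, 19.9 and 20.3 CPM with SS, and 29.9 and 31.2 CPM with SS+NAC, with a log2 fold change of 0.50 ± 0.0853 (SE) (adjusted p = 0.0142). Its adjusted p was 0.0777 and 0.208 without control replicate 1 and 2.

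Most hydrolases had a positive value in SS+NAC over control, and GAA alone passed the test. Of 46 hydrolases, 39 (84.8%) were above 0, against 49.4% of all tested genes. The class median was 0.19, with that of all genes near 0. Of the 6 epithelial and mesenchymal genes, 0 were called here and 1, FN1 at 0.46, was above 0. With the offset FN1 was called higher by edgeR's quasi-likelihood test, at 0.48 (adjusted p = 0.0291). The part of this change in the class values was not tested. By type, 14 of 15 glycosidases, 14 of 15 proteases and 6 of 7 sulfatases were above 0, with medians of 0.20, 0.23 and 0.08, while 2 of 6 lipid hydrolases were, with a median of -0.02. An unadjusted p under 0.05 in edgeR's quasi-likelihood test was reached by 18 of the 46, beside 2256 of all 14005 tested genes. The protease TPP1, for example, had 101 and 107 CPM in control, 104 and 90.3 CPM with SS, and 126 and 129 CPM with SS+NAC, with both SS+NAC libraries above the other 4 and a log2 fold change of 0.29 ± 0.0835 (SE) (adjusted p = 0.123). Membrane proteins had a median of 0.10, the proton pump 0.07 and sorting genes -0.06. No pump gene was called. In edgeR's quasi-likelihood test 4 of 24 had an unadjusted p under 0.05, beside 2256 of all 14005 tested genes.

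**Figure D4:**
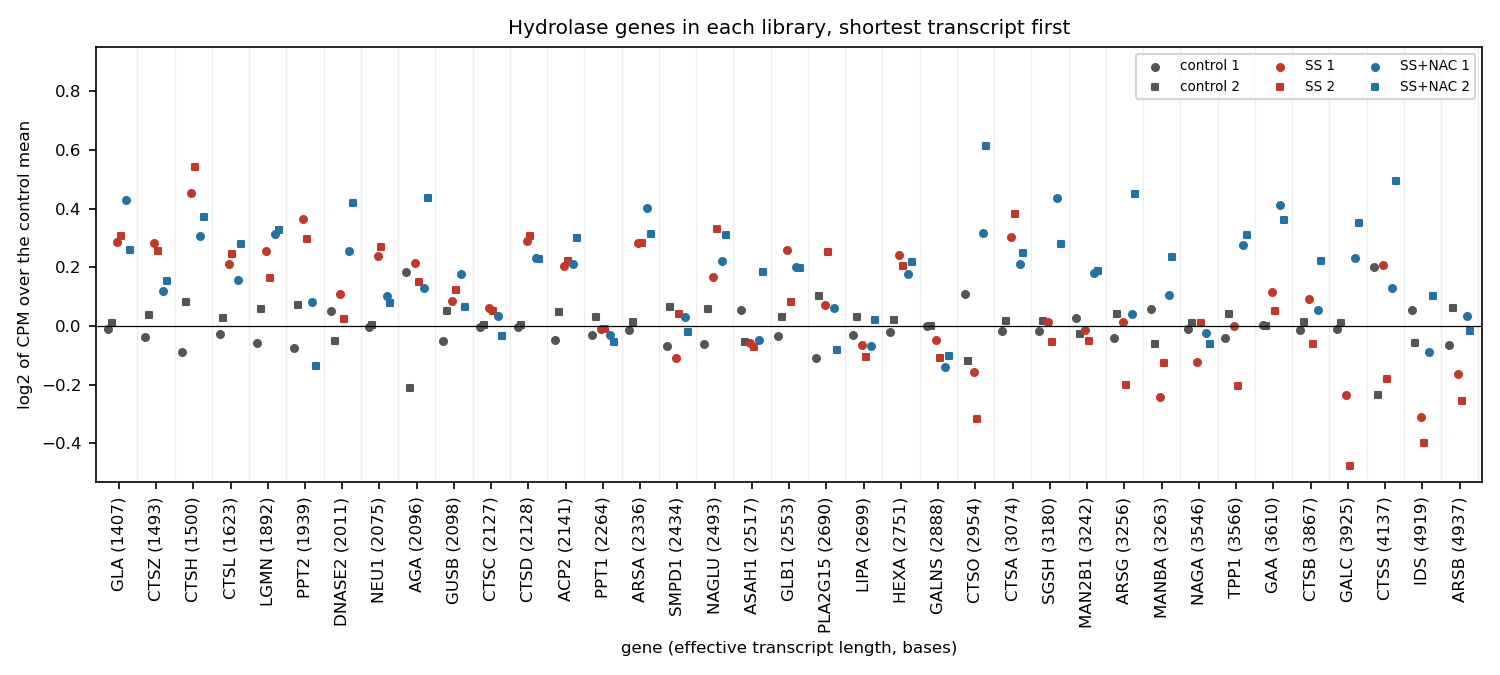
Log2 of CPM over the control mean in each of the 6 libraries for 37 hydrolase genes whose mean reached 4 CPM in any group, from the shortest transcript drawn (GLA, 1407 bases) to the longest (ARSB, 4937 bases). SS+NAC libraries (blue) lie above 0 for most genes at all lengths, and SS libraries (red) pass from above 0 at the short end to below 0 at the long end.

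The direct comparison of SS with SS+NAC measured selenite without and with NAC, and shares libraries with both comparisons above. It found 25 lysosome genes higher and 30 lower in SS, against 2745 higher (19.6%) and 3240 lower (23.1%) of all genes, with a median of -0.02 against -0.03. The correlation with length across the lysosome genes was -0.69. Of the cell type markers, KRT8, KRT18 and VIM were higher at 0.65, 0.71 and 0.49, also called with the offset, and FN1 and COL1A1 lower at -0.70 and -0.34, not called with it; their part in the result was not tested. PAX8 was called with the offset alone, at 0.29. The length offset gave 3 higher and 13 lower, against 986 higher (7.04%) and 1034 lower (7.38%). The counts of lysosome genes were lower without SS replicate 2, both without the offset and with it. With the offset, the counts over all tested genes moved with single libraries too. Both they and the lysosome counts fell without any library but SS+NAC replicate 1, and rose without that one. All 55 called genes kept their direction in the 6 fits that left out a library. These genes too were picked on the same libraries, and the fits without a control library kept both compared groups whole.

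The hydrolases were the class with the most falls under the offset, 8 of 46 (17.4%, beside 7.38% of all tested genes) with 0 higher, and a class median of -0.14. They included CTSO, GALC, TPP1, SGSH, DNASE2, LGMN and GLA. Cathepsin O (CTSO), a cysteine protease, had 13.7 and 11.7 CPM in control, 11.4 and 10.2 CPM with SS, and 15.8 and 19.4 CPM with SS+NAC. Its SS+NAC libraries were the highest and its SS libraries the lowest, with a log2 fold change of SS over SS+NAC of -0.71 ± 0.134 (SE) (adjusted p = 0.00217) and of -0.68 with the offset (adjusted p = 0.00989). GALC had 15.9 and 16.1 CPM in control, 13.6 and 11.5 CPM with SS, and 18.8 and 20.4 CPM with SS+NAC. The 3 groups did not overlap, and the log2 fold change was -0.64 ± 0.109 (SE) (adjusted p = 0.00126), or -0.47 with the offset (adjusted p = 0.0156). TPP1, SGSH and DNASE2 had -0.39, -0.38 and -0.27 without the offset and -0.27, -0.32 and -0.43 with it. With the offset, fewer hydrolases were called lower when any library but SS+NAC replicate 1 was left out. All of these calls were lost without SS replicate 2. TPP1 and SGSH lost their calls in most of these fits. The class median lay between -0.17 without SS replicate 1 and -0.08 without SS+NAC replicate 2. Without the offset 9 hydrolases were lower and 1, PPT2, was higher at 0.36 (0.18 with the offset).

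In the proton pump, 10 of 24 genes were higher in SS than in SS+NAC and 2 were lower (41.7% and 8.33%, beside 19.6% and 23.1% of all tested genes), and with the offset 1 was higher and 1 lower. ATP6V1F led with 0.60 ± 0.0881 (SE) (adjusted p = 0.000636), and had 0.06 with the offset. ATP6V0D1, which couples the ring to the central stalk, had 65.9 and 69.4 CPM in control, 81.6 and 93.2 CPM with SS, and 67 and 59.1 CPM with SS+NAC. The SS libraries were above the rest, with a log2 fold change of 0.47 ± 0.0907 (SE) (adjusted p = 0.00236) and of 0.23 with the offset (adjusted p = 0.0839). With the offset, ATP6V0E2 was higher at 0.35 and ATP6AP2, the renin receptor, lower at -0.33. Among the 23 membrane proteins, 2 were higher and 7 lower (8.7% and 30.4%). The largest fall was that of the lipid transporter ABCA2, at -0.77 ± 0.151 (SE) (adjusted p = 0.00261) and -0.30 with the offset (adjusted p = 0.172). LAMP2 and SCARB2 had -0.42 and -0.45, and -0.20 and -0.19 with the offset. CD68, a lysosomal mucin used as a macrophage marker, was the membrane protein called with the offset, at -0.33 (adjusted p = 0.0185).

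Of the 32 sorting genes, 6 were higher and 6 lower (18.8% each, near the 19.6% and 23.1% of all tested genes), and with the offset 2 were higher and 2 lower. AP3S2 was not called without the offset (0.20) and was 0.56 with it (adjusted p = 0.00321), a call that stayed in all 6 fits that left out a library. GNPTAB was lower in SS than in SS+NAC by both fits, at -0.72 ± 0.093 (SE) (adjusted p = 0.000422) and at -0.39 with the offset (adjusted p = 0.015). The call with the offset was lost without SS replicate 1 (adjusted p = 0.0678) and without SS replicate 2 (0.124). CLTCL1, another clathrin heavy chain, had 10.9 and 9.91 CPM in control, 8.8 and 7.99 CPM with SS, and 15.8 and 13.5 CPM with SS+NAC. The SS+NAC libraries were above the rest, and the log2 fold change was -0.80 ± 0.125 (SE) (adjusted p = 0.000829) and -0.57 with the offset, a call lost without SS replicate 1 (adjusted p = 0.059) and without SS replicate 2 (0.13). IGF2R had -0.62 without the offset and -0.02 with it. AP1M2, the epithelial adaptor subunit, had 31.7 and 36.2 CPM in control, 38.2 and 51.2 CPM with SS, and 32.6 and 20.9 CPM with SS+NAC. Its SS libraries were above the rest, the SS and SS+NAC pairs each differed more within themselves than the controls did, and the log2 fold change was 0.74 ± 0.185 (SE) (adjusted p = 0.00903), with 0.52 under the offset (adjusted p = 0.0781).

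Summed levels of the classes depended on the unit. In TPM, in which the transcripts of each library sum to the same total, the proton pump genes summed to 1627 and 1669 in control, 1786 and 1759 with SS, and 1747 and 1774 with SS+NAC. The treated libraries were all above the controls, at 1.08 and 1.07 times the control mean. The hydrolases summed to 2431 and 2437 TPM in control, 2329 and 2074 TPM with SS, and 2671 and 2921 TPM with SS+NAC, so the SS libraries were the lowest and the SS+NAC libraries the highest. Their ratios to control were 0.904 for SS and 1.15 for SS+NAC in TPM, and 1.02 and 1.14 in FPKM. For the membrane proteins the ratios in TPM were 0.989 and 1.11, and for sorting genes 0.939 and 0.992. In FPKM the SS ratio was 1.22 for the proton pump, 1.12 for membrane proteins and 1.06 for sorting genes.

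Promoter windows from 250 bases before to 50 after the transcript start, 300 bases in all, were taken from RefSeq on build GRCh38.p14 and matched 128 of the 168 genes by gene identifier. They were searched for the palindromes CACGTG, the E-box, and TCACGTGA, which contains it and is the centre of the element that TFEB, TFE3 and MITF bind. A palindrome reads alike on both strands. The longer motif was present for 13 of the 128 genes (10.2%), against 245 of 11252 tested genes with a window (2.18%) and 320 of all 27195 genes with one (1.18%). The E-box was present for 31 of the 128 (24.2%), against 12.4% of the tested genes and 8.79% of all. A match is a description of the letters and not of binding.

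The windows of 9 genes described above are shown because they hold the longer motif, printed 5′ to 3′ on the strand of the gene with the motif in capitals.
GAA: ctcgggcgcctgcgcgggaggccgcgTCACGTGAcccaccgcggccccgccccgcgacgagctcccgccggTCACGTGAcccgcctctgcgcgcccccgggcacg
CTSA: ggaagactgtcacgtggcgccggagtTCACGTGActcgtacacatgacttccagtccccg
LAMP1: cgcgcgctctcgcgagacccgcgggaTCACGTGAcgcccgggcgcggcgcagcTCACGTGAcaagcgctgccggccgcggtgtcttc
MCOLN1: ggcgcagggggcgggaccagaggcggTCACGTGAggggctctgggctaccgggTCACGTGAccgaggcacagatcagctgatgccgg
GNPTG: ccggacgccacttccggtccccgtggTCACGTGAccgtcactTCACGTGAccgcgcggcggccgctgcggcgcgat
IGF2R: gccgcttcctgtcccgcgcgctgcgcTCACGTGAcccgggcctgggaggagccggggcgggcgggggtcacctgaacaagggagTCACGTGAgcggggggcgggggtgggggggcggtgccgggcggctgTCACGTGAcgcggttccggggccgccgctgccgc
ATP6V0D1: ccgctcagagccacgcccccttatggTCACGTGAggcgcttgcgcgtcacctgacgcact
ATP6V1G1: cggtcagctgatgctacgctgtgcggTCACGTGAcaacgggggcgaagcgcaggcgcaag
CD164: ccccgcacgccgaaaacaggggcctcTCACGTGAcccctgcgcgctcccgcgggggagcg

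The stretches lie at chr17:80101478-80101582 for GAA, chr20:45891283-45891342 for CTSA, chr13:113297184-113297270 for LAMP1, chr19:7522556-7522642 for MCOLN1, chr16:1351892-1351967 for GNPTG, chr6:159968923-159969086 for IGF2R and chr9:114587684-114587743 for ATP6V1G1, all on the plus strand, and on the minus strand at chr16:67481184-67481243 for ATP6V0D1 and chr6:109382469-109382528 for CD164. IGF2R held 3 copies, and GAA, LAMP1, MCOLN1 and GNPTG 2 each. The same letters were thus present in genes that differed in direction with SS: CTSA, GNPTG, ATP6V0D1 and ATP6V1G1 rose, IGF2R and CD164 fell, and LAMP1, MCOLN1 and GAA were not called. These directions are those without the length offset; with it CTSA alone of the 9 was called, and IGF2R and GNPTG had 0.17 and 0.02. Of the lysosome genes with a window, the motif was held by 4 of 30 that rose with SS (13.3%) and 3 of 14 that fell (21.4%), again without the offset.

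The regulators of the pathway were read from a separate list. TFEB had 11.4 and 10.6 CPM in control, 12 and 11.4 CPM with SS, and 9.94 and 12.1 CPM with SS+NAC, with overlapping groups (log2 fold change of SS over control 0.09, adjusted p = 0.622). TFE3 had 64.6 and 69.3 CPM in control, 66.5 and 71.3 CPM with SS, and 69.7 and 67.5 CPM with SS+NAC, again with overlap (0.04, adjusted p = 0.711). MITF had 5.56 and 4.48 CPM in control, 3.09 and 3.24 CPM with SS, and 4.76 and 4.69 CPM with SS+NAC; its SS libraries were the lowest, with a log2 fold change of -0.65 ± 0.177 (SE) (adjusted p = 0.0137) and of -0.39 with the offset (adjusted p = 0.201). Of 13 genes of the Ragulator complex, the Rag GTPases and their regulators, which recruit mTORC1 to the lysosome, 5 rose with SS and 2 fell (38.5% and 15.4%, beside 18.6% and 21.4% of all tested genes). LAMTOR1, LAMTOR2, LAMTOR4, LAMTOR5 and RRAGA rose by 0.35, 0.52, 0.56, 0.46 and 0.47, and FNIP1 and FNIP2 fell by 0.33 and 0.60. In the same order, the offset left -0.04, -0.00, 0.01, -0.01, 0.21, 0.07 and -0.27. With the offset, 0 of the 13 were called in edgeR's quasi-likelihood test. In the same test 4 had an unadjusted p under 0.05, beside 3551 of all 14005 tested genes.

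Of 8 assembly factors of the pump, 2 rose with SS and 3 fell, where 18.6% and 21.4% of all tested genes did; with the offset 1 rose and 0 fell. VMA21, the assembly chaperone of the V0 sector, had 72.9 and 68.4 CPM in control, 95.6 and 99.6 CPM with SS, and 80.3 and 85.5 CPM with SS+NAC. The SS libraries were the highest and the SS+NAC libraries lay between them and the controls. Its log2 fold change was 0.47 ± 0.0751 (SE) (adjusted p = 0.00103), and 0.73 with the offset (adjusted p = 0.000648). CCDC115 rose by 0.51 and had 0.28 with the offset. DMXL1, DMXL2 and WDR7, components of the complex that rejoins V1 to V0, fell by 0.82, 0.87 and 0.38, and had -0.24, -0.33 and 0.03 with the offset. Of 8 genes of the HOPS tether, RAB7A and the lipid kinase PIKFYVE, 1 rose and 2 fell, a share of 37.5% beside the same background, and with the offset 1 rose and 1 fell. PIKFYVE, which makes the lipid that controls lysosome size, had 49.4 and 46.3 CPM in control, 24.8 and 22.7 CPM with SS, and 41.7 and 47.1 CPM with SS+NAC. Both SS libraries were below the others, with a log2 fold change of -1.01 ± 0.0914 (SE) (adjusted p = 9.87e-05) and of -0.49 with the offset (adjusted p = 0.00648). In SS+NAC over control, 0 genes of these lists were called. An unadjusted p under 0.05 in edgeR's quasi-likelihood test was reached by 2 of the 8 assembly factors, beside 2256 of all 14005 tested genes.

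In SS over SS+NAC, 5 of the 13 Ragulator and Rag genes were higher and 2 lower. The assembly factors had 2 higher and 4 lower, and the HOPS group had 1 higher and 3 lower, beside 19.6% higher and 23.1% lower of all tested genes. With the offset these lists had 1 and 1, 1 and 0, and 1 and 1, beside 7.04% and 7.38%. MITF, VMA21 and PIKFYVE had log2 values of -0.58, 0.24 and -0.90. With the offset they were -0.32 (adjusted p = 0.241), 0.50 (adjusted p = 0.0025) and -0.40 (adjusted p = 0.0115).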

How the data were processed

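The authors sequenced poly(A)-selected RNA as single-end reads on a BGISEQ-500 and, per the submitters' notes, used HISAT2 2.0.4, Bowtie2 2.2.5 and RSEM 1.2.12. The authors deposited RSEM expected counts, FPKM and TPM for each library in a single table, with their own log2 fold changes, p-values and q-values, which were not used. RSEM divides reads among similar transcripts, so genes with near-identical copies are uncertain.

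Expected counts were rounded, genes were filtered with filterByExpr (14005 tested), scaled by TMM, and fitted over all 6 libraries with edgeR 4.0.16 in R 4.3.3 by its quasi-likelihood test, with Benjamini-Hochberg adjustment over all tested genes and a threshold of 0.05. CPM values use the TMM factors. The offset for length was a lowess fit (span 0.3) of each library's log2 CPM deviation on log2 effective length, which was derived from the deposited counts and FPKM. DESeq2 1.42.0 served as an alternative. Gene windows came from RefSeq. The scripts were tested on simulated data. The simulated counts had no trend on transcript length, so they do not show how the fits behave under such a trend. The study's methods describe 2 biological replicates per group, and p-values measure the spread between these libraries alone. That spread was unequal: the chi-square per degree of freedom between replicates was 3.1 in control, 7.33 in SS and 12.2 in SS+NAC. The fit shared its estimate of the spread over the 3 groups, so each comparison also drew on the group outside it.

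The members and lists were chosen with earlier results of these data known. The 33 members outside the class lists were put in the other annotated group after the table was read. Named genes were, for each comparison and class, up to 3 called genes with the largest rise and up to 3 with the largest fall and a mean of 1 CPM or more, the 10 with the highest control FPKM, all pump genes, and CTSB, CTSD, CTSL, GAA, LAMP1, LAMP2, SCARB2, NPC1, MCOLN1, IGF2R, M6PR, PSAP, TFEB, TFE3 and MITF. Other genes named, among them UNKL and those called with the length offset, and the fits that combine the length offset with a left-out library, were chosen after the values were seen. Some lysosome genes, hydrolases among them, were counted with their class but are not reported here or drawn by name.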

Additional observations from a re-analysis of the deposited data

How the results depend on the processing

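With 2 libraries per group, counts of calls moved with the fit, and the causes were not tested except where stated. Bonferroni adjustment left 0 lysosome genes higher and 0 lower in each of the 3 comparisons. The length offset gave 4 higher and 1 lower in SS over control and 3 and 13 in SS over SS+NAC, and the replicate block with the length offset gave 3 and 1, 1 and 0 in SS+NAC over control, and 1 and 9. The replicate block alone gave 30 and 15, 1 and 0, and 22 and 25. Deviations of libraries with the same number correlated at 0.11, -0.11 and -0.17 between groups. With 2 libraries per group these values cannot decide whether the numbers paired the samples. A minimum of 10 counts in every library gave 4 higher in SS+NAC over control. Fits without 1 library gave between 12 and 44 higher and between 10 and 28 lower in SS over control, between 0 and 8 and between 0 and 4 in SS+NAC over control, and between 10 and 24 and between 16 and 36 in SS over SS+NAC; a group left with 1 library was assumed to vary like the others. The class medians in SS over control were, for hydrolases, 0.11 by DESeq2, 0.10 with no filter, 0.11 with the minimum of 10 counts, 0.03 with the length offset with or without the replicate block, and 0.05 to 0.10 without 1 library. For cofactors they were 0.16 by DESeq2, -0.03 with the length offset with or without the block, and -0.02 to 0.19 without 1 library. For membrane proteins the range without 1 library was -0.12 to 0.03. For sorting genes they were 0.03 with the minimum of 10 counts, 0.01 with the length offset with or without the block, and -0.07 to -0.0015 without 1 library. For the proton pump they were 0.25 with the minimum of 10 counts, 0.08 with the length offset with or without the block, and 0.18 to 0.31 without 1 library. The sign of called genes turned under the length offset, which removes the trend by construction. In SS over control 12 of 56 called genes turned: CD63 to -0.0014 (-0.0016 with the block), IGF2R 0.17, ATP6V0E1 -0.02, CTSL -0.04, ATP6V0B -0.02, GLA -0.03, CTSZ -0.03, CLTB -0.03, CLTC 0.22, AP3M1 0.11, SORT1 0.0026 and FIBP -0.05. In SS over SS+NAC 9 of 55 did: NPC2 to -0.13, CD63 -0.15, ATP6V0E1 -0.02, ATP6V1C1 0.02, ATP6V1E1 -0.03, ATP6V0C -0.03, SORT1 0.12, AP3S1 -0.002 and ZNF335 0.02. Of the named genes that did not pass the test, 18 of 23, 12 of 39 and 12 of 21 changed sign under some fit in the 3 comparisons.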
